A study of Sus scrofa with 12 samples.

Results

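Chemokines are small secreted or membrane-tethered proteins that steer leukocytes through G protein-coupled receptors. The CC and CXC families are named for the spacing of their first cysteines. In connective tissue, resting fibroblasts are a known source of CXCL12, whereas CCL3 and CCL4 type chemokines are made mainly by activated myeloid and lymphoid cells, often downstream of NF-kB. The 6 chemokine genes described here were CXCL12, CXCL14, CXCL16, AMCF-II, CCL4 and CCL3L1, out of 6765 genes that had a probe set annotated with a single symbol. Every probe set whose single gene symbol in the platform annotation was one of these names was taken, which gave 10 probe sets, and all 10 passed the filter on low values. Where a gene had several probe sets they are called A, B and C in falling order of mean level, and the plot of values by array gives the manufacturer's identifiers.

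They were measured on Affymetrix 3' arrays in fibroblast-like valve cells, the valvular interstitial cells (VICs), released with collagenase II from aortic valves of adult pigs. There were 4 groups of 3 biological replicates. P2 cells went through 2 passages on plastic (TCPS) with 15% fetal bovine serum in the medium and were then held in 1% serum. They stayed untreated or received porcine TGF-β1, a cytokine that drives fibroblasts to a contractile, matrix-making state, at 5 ng/ml for 8 h or for 24 h, and all P2 cells were collected after 3 days of culture. P0 cells were studied straight from the tissue, with no culture and no treatment. The labels do not say whether a biological replicate was 1 animal or a pool, so p-values measure the spread between these samples.

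Values were deposited log2 expression values, and array medians lay within 0.0734 of each other. Reporter control probe sets had a 95th percentile of 4.58, and a group mean under it is treated as background. VIM, the intermediate filament of mesenchymal cells, averaged 15.57 in untreated P2 and 15.62 in P0 arrays, and DCN, LUM and PDGFRB were also above the control level in every group. Of 14 measured macrophage and monocyte markers, 12 fell in untreated P2 against P0 cells, where 24.2% of all tested genes fell and 42.1% rose. P2 arrays of the same replicate number resembled each other, and the P2 arrays numbered 3 were lowest in each of the 3 P2 groups for 9 of 13 endothelial markers. In the other gene lists below this held for 4 of 6 chemokine receptors, 5 of 10 other chemokines and 5 of 10 NF-kB genes. It held for 4 of 14 macrophage markers, 3 of 13 chemokine processing genes, 2 of 10 fibroblast markers and 0 of 5 lymphocyte markers. The share over all genes was not computed. The arrays are bulk samples, in which fewer cells of a type and less RNA per cell cannot be told apart.

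The first comparison asked what 2 passages on plastic changed. It split the chemokines. CCL4, CCL3L1 and CXCL12 were far lower in culture, with falls of 17.3-fold to 211-fold, while AMCF-II and CXCL14 rose steeply on at least 1 probe set and CXCL16 rose 2.04-fold. Of the 10 probe sets 5 rose and 4 fell in untreated P2 against P0 cells (limma, adjusted p under 0.05). Over all 17638 tested probe sets 59.4% were called, 33.6% upward and 25.8% downward. The groups did not overlap for 9 of the 10 chemokine probe sets, against 65.1% of all tested. With so many genes called, that count of chemokine probe sets is no result in itself. The median log2 fold change over the 10 was 0.58, against 0.07 over all tested probe sets, and it mixes rises with falls. Scan dates and batches are not given, so a batch and the step between P0 and P2 cannot be told apart.

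**Figure D1:**
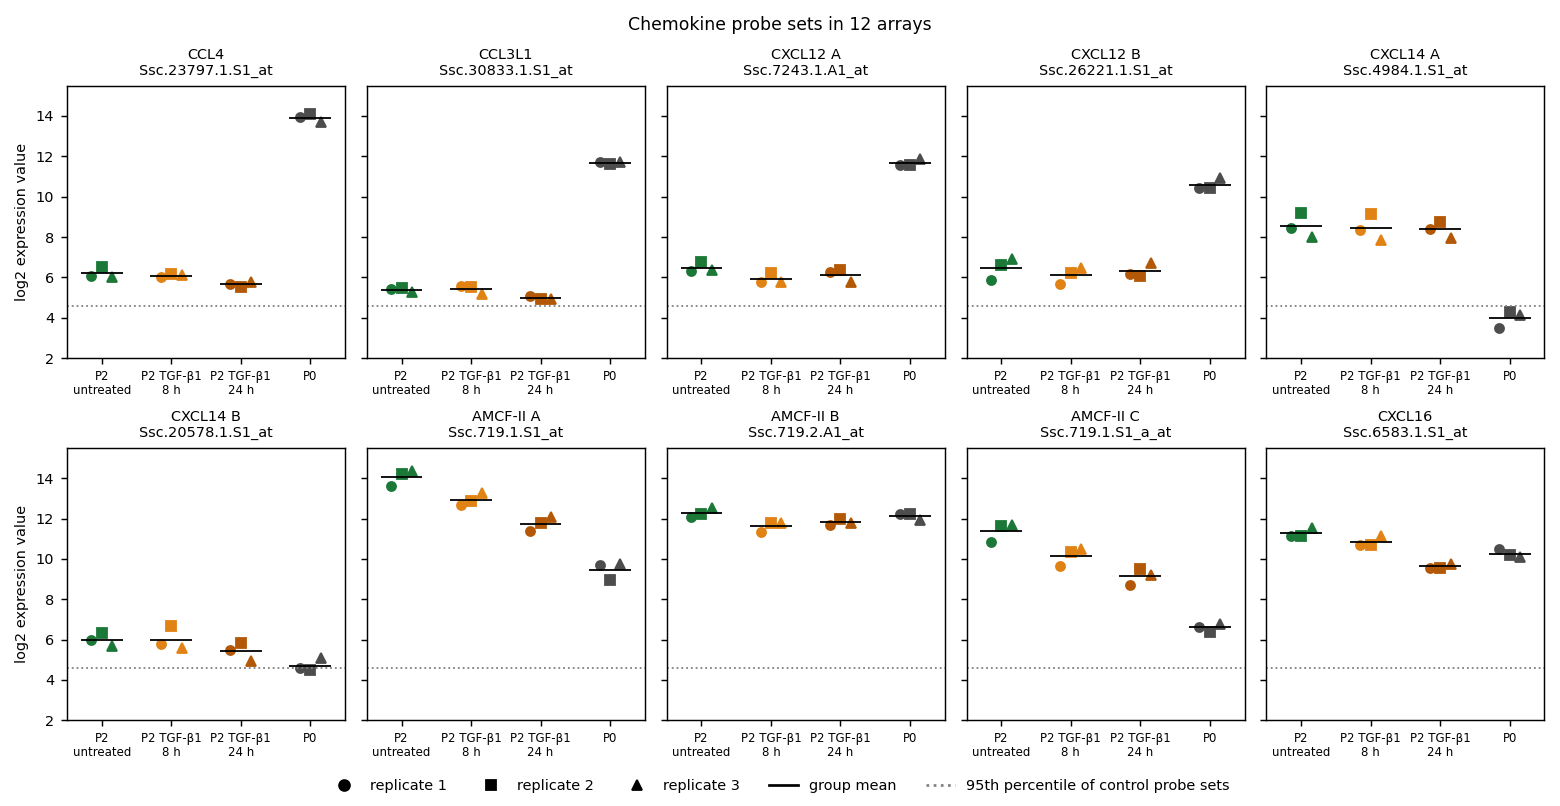
Each panel plots the log2 expression value (y axis) of 1 chemokine probe set in the 12 arrays, with 3 arrays in each of the groups on the x axis, symbols for the replicate number, a bar for the group mean and a dotted line at the 95th percentile of reporter controls (4.58). CCL4, CCL3L1 and CXCL12 sit far lower in all P2 arrays than in P0 arrays, AMCF-II steps down with TGF-β1 on its probe sets A and C, and CXCL16 is lowest at 24 h.

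CCL4, also called MIP-1β, attracts monocytes and T cells. Its probe set read 6.07, 6.53 and 6.0 in untreated P2 arrays. It read 13.94, 14.10 and 13.72 in P0 arrays. All 3 cultured arrays were far below all 3 fresh ones, and the fall was 211-fold (log2 fold change -7.72 ± 0.154 SE, limma adjusted p = 2.56e-11). The low values in culture still lay above the 95th percentile of reporter controls.

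CCL3L1 belongs to the MIP-1α type of CC chemokines, known in humans to attract monocytes and other leukocytes. On the reference pig assembly Sscrofa11.1 it lies beside CCL4 with 1 other gene model starting between them. Its probe set read 5.42, 5.46 and 5.29 in untreated P2 arrays. The P0 arrays read 11.73, 11.62 and 11.72, so the arrays within each group were close together and the groups did not overlap. The fall was 78.7-fold (-6.30 ± 0.124, adjusted p = 2.56e-11). CCL4 and CCL3L1 thus shared one large step between P2 and P0 and a far smaller spread within P2. In the same arrays the mean log2 level over 14 macrophage and monocyte markers ran from 6.79 to 7.38 in untreated P2 and from 9.29 to 9.85 in P0, and its part in these falls was not tested.

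CXCL12, or SDF-1, is a homing signal for cells that carry CXCR4. It was read by 2 probe sets that carry different transcript accessions. Probe set A read 6.30, 6.77 and 6.35 in untreated P2 arrays and 11.56, 11.58 and 11.88 in P0 arrays. Probe set B read 5.88, 6.62 and 6.92 in untreated P2 arrays and 10.41, 10.42 and 10.92 in P0 arrays. Both probe sets separated the groups completely. The fall was 36.8-fold on A (-5.20 ± 0.188, adjusted p = 1.19e-09) and 17.3-fold on B (-4.11 ± 0.282, adjusted p = 1.67e-07).

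AMCF-II, alveolar macrophage chemotactic factor II, is a porcine CXC chemokine known to attract neutrophils, and the reference gene table lists CXCL6 as its synonym. Its 3 probe sets carry the same transcript accession but did not behave alike. Probe set A read 13.63, 14.23 and 14.35 in untreated P2 arrays, against 9.70, 8.94 and 9.73 in P0 arrays. That is a 24.5-fold rise (4.61 ± 0.265, adjusted p = 4.34e-08). Probe set C read 10.83, 11.61 and 11.67 in untreated P2 arrays, against 6.64, 6.40 and 6.78 in P0 arrays, a 27.2-fold rise (4.77 ± 0.282, adjusted p = 5.24e-08). On both of these the groups were far apart.

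AMCF-II probe set B showed no such step. It read 12.09, 12.22 and 12.53 in untreated P2 arrays and 12.23, 12.24 and 11.95 in P0 arrays, and the groups overlapped. Its log2 fold change was 0.14 with a 95% interval from -0.21 to 0.49 (adjusted p = 0.472). That interval lies wholly below those of the others, 4.03 to 5.19 for A and 4.15 to 5.38 for C. The size of the AMCF-II change in culture therefore depends on which probe set is read, and what the probe sets hybridise was not tested.

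CXCL14 is a CXC chemokine made by epithelia and by some fibroblasts. Probe set A read 8.46, 9.20 and 8.00 in untreated P2 arrays and 3.47, 4.31 and 4.12 in P0 arrays. Every P0 array lay under the control level, so the rise is given as a bound of at least 15.6-fold (adjusted p = 6.32e-07). Probe set B read 6.0, 6.33 and 5.67 in untreated P2 arrays and 4.59, 4.48 and 5.07 in P0 arrays. It also separated the groups, with a smaller rise of 2.45-fold (1.29 ± 0.305, adjusted p = 0.00297) from near the control level.

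CXCL16 is a transmembrane chemokine that binds CXCR6 and also takes up oxidised LDL, and proteases such as ADAM10 can shed it. Its probe set read 11.14, 11.12 and 11.55 in untreated P2 arrays. It read 10.48, 10.17 and 10.08 in P0 arrays. All cultured arrays were above all fresh ones, but by less than on probe sets A and C of AMCF-II, with a rise of 2.04-fold (1.03 ± 0.167, adjusted p = 0.000200).

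**Figure D2:**
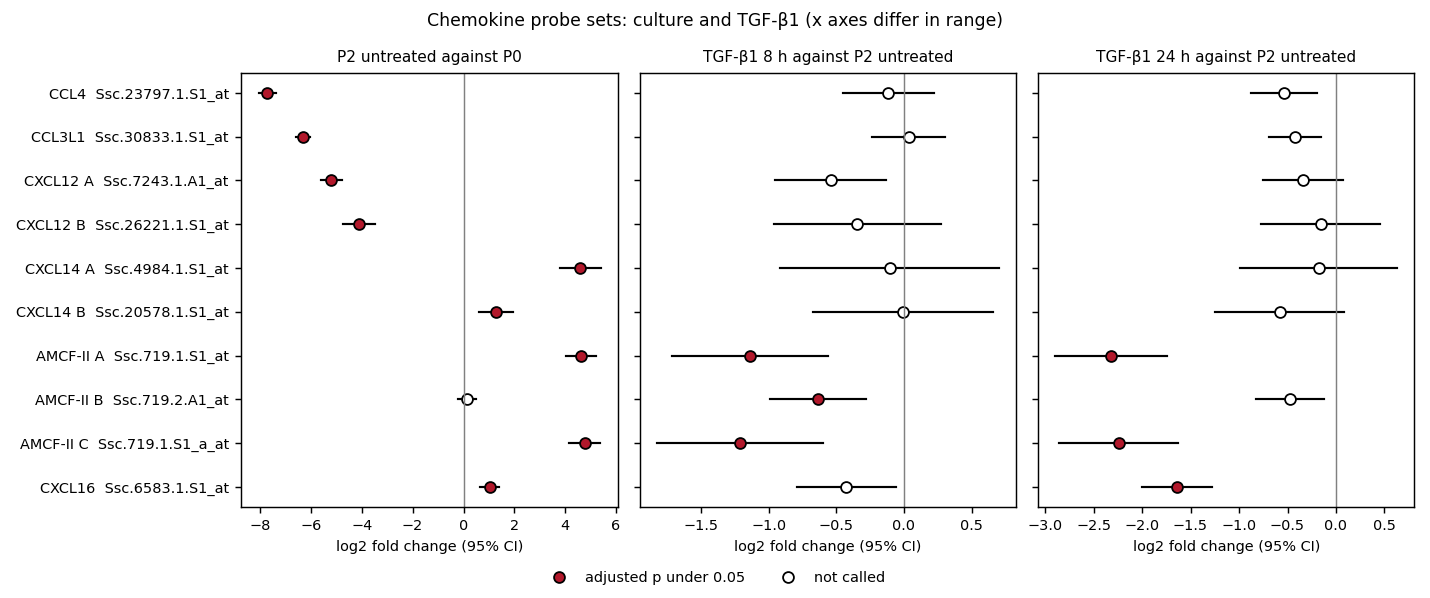
Points give the log2 fold change (x axis) of each of the 10 chemokine probe sets (y axis) from limma and bars its 95% confidence interval, for untreated P2 against P0 cells and for each time of TGF-β1 against untreated P2 cells. Filled points passed an adjusted p of 0.05, and 9, 3 and 3 probe sets are filled in the 3 panels.

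The next comparisons asked how TGF-β1 acted on cultured cells. TGF-β1 lowered AMCF-II at 8 h and, on probe sets A and C, at 24 h, and lowered CXCL16 at 24 h. CCL4, CCL3L1 and CXCL12 lay within 0.54 log2 units of their low cultured means at both times. Of the 10 probe sets 0 were called upward. At 8 h 3 of the 10 probe sets fell, all of AMCF-II, where 5.07% of all tested probe sets were called, 2.53% lower and 2.53% higher. At 24 h 3 of the 10 fell, A and C of AMCF-II and that of CXCL16, where 8.49% of all tested were called, 4.22% lower and 4.27% higher. The groups did not overlap for 4 of the 10 at 8 h (25.5% of all tested) and for 6 at 24 h (25.3%). Both comparisons share the untreated arrays, which also serve in the comparison with P0. The P2 replicate numbers paired the arrays, and with the replicate number as a block in the 9 P2 arrays 5 of the 10 fell at 8 h (6.77% of all tested called lower) and 7 of the 10 at 24 h (10.2%).

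AMCF-II on probe set A read 13.63, 14.23 and 14.35 in untreated P2 arrays, 12.66, 12.87 and 13.26 at 8 h, and 11.40, 11.77 and 12.09 at 24 h. The groups stepped down with time and did not overlap. The fall was 2.20-fold at 8 h (-1.14 ± 0.265, adjusted p = 0.0296) and 4.98-fold at 24 h (-2.32 ± 0.265, adjusted p = 0.000422). Probe set C gave 9.64, 10.36 and 10.48 at 8 h and 8.69, 9.51 and 9.19 at 24 h, with falls of 2.32-fold (-1.21 ± 0.282, adjusted p = 0.0292) and 4.73-fold (-2.24 ± 0.282, adjusted p = 0.000786) against the untreated values above.

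Probe set B moved less. It read 11.34, 11.79 and 11.80 at 8 h and 11.67, 11.96 and 11.78 at 24 h, all under the untreated arrays. It fell by 0.64 on the log2 scale at 8 h (SE 0.161, adjusted p = 0.0434). At 24 h its change of -0.47 (95% interval -0.83 to -0.12) missed the threshold (adjusted p = 0.0972) but passed with the replicate block (adjusted p = 0.0249).

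Without the replicate block, the 8 h calls of AMCF-II did not withstand the loss of single arrays. All 3 were lost without untreated replicate 2 or 3, or without 8 h replicate 1 or 2, with adjusted p from 0.0595 to 0.178 in those fits. Probe set B was also lost without untreated replicate 1 (0.0568), without 8 h replicate 3 (0.0681) or with no filter (0.0569). With the block the adjusted p lay between 0.00133 and 0.0127. On all 3 probe sets each 8 h array lay under the untreated array of the same number. The 24 h calls of A and C held in each of 15 alternative settings, with adjusted p of at most 0.0140.

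CXCL16 read 10.69, 10.70 and 11.14 at 8 h and 9.57, 9.55 and 9.77 at 24 h. At 8 h the arrays touched the range of the untreated ones (11.12 to 11.55), and the change of -0.43 (95% interval -0.79 to -0.06) was not called (adjusted p = 0.199), though it was with the replicate block (adjusted p = 0.0202). At 24 h all 3 arrays were clear of the untreated group, and the fall was 3.12-fold (-1.64 ± 0.167, adjusted p = 0.000270). CXCL16 was the 1 chemokine probe set called between 24 h and 8 h (-1.21 ± 0.167, adjusted p = 0.0152), where 0.232% of all tested probe sets were called, 0.0907% lower and 0.142% higher. The groups did not overlap for 5 of the 10 (13.7% of all tested). The CXCL16 call did not survive the loss of 8 h replicate 1 (adjusted p = 0.0628), 8 h replicate 3 (0.0623) or 24 h replicate 1 (0.0734). A fit of the 2 groups alone lost it too (adjusted p = 0.174).

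Between 24 h and 8 h the further fall of AMCF-II came to -1.18 log2 units on A and -1.03 on C, and in each the arrays did not overlap. Neither was called without the block (adjusted p = 0.130 and 0.233). Both were called with it (adjusted p = 0.00290 and 0.00900), when 3 of 10 chemokine probe sets fell against 1.32% of all tested.

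The chemokines that were low in culture moved by smaller steps under TGF-β1. CCL4 read 6.0, 6.15 and 6.10 at 8 h and 5.69, 5.51 and 5.80 at 24 h. The 24 h arrays lay below every untreated array, with a change of -0.53 (95% interval -0.87 to -0.20) that missed the threshold (adjusted p = 0.0544) and passed with the replicate block (adjusted p = 0.0421). CCL3L1 read 5.59, 5.53 and 5.16 at 8 h and 5.06, 4.94 and 4.91 at 24 h. Its 24 h change of -0.42 (95% interval -0.70 to -0.15) likewise missed the threshold (adjusted p = 0.0578) and passed with the block (adjusted p = 0.0217). Both genes were by then within 1.1 log2 units of the control level.

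CXCL12 on probe set A read 5.79, 6.21 and 5.79 at 8 h and 6.26, 6.35 and 5.78 at 24 h. Its change was -0.54 at 8 h (95% interval -0.95 to -0.13, adjusted p = 0.141) and -0.34 at 24 h (-0.75 to 0.07, adjusted p = 0.316), and only the 8 h change passed with the block (adjusted p = 0.0240). Probe set B read 5.69, 6.22 and 6.47 at 8 h and 6.17, 6.07 and 6.69 at 24 h, and overlapped the untreated arrays at both times. Neither of its changes passed in either fit.

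CXCL14 on probe set A read 8.36, 9.14 and 7.83 at 8 h and 8.42, 8.75 and 7.96 at 24 h, a range that overlapped the untreated arrays throughout. Its changes were -0.11 (95% interval -0.91 to 0.70) at 8 h and -0.18 (-0.98 to 0.63) at 24 h, so the intervals reach nearly 1 log2 unit downward. Probe set B read 5.76, 6.65 and 5.57 at 8 h and 5.48, 5.85 and 4.93 at 24 h. It overlapped the untreated arrays at both times, and its 24 h change of -0.58 (95% interval -1.25 to 0.08, adjusted p = 0.292) passed with the block (adjusted p = 0.0177).

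After 24 h of TGF-β1 AMCF-II was still above its level in fresh cells on A and C, while CXCL16 was below it. Cells given TGF-β1 for 24 h were set against P0 cells, a comparison added after the values were seen. Here 3 of 10 chemokine probe sets rose and 5 fell, where 62.5% of all tested were called, 35.6% higher and 26.9% lower. The groups did not overlap for 8 of the 10 (65.6% of all tested). AMCF-II remained 4.91-fold higher than in P0 cells on A (2.30 ± 0.265, adjusted p = 1.07e-05) and 5.75-fold higher on C (2.52 ± 0.282, adjusted p = 8.03e-06). CXCL16 lay on the other side of the fresh cells, 1.53-fold lower at 24 h than in P0 (-0.61 ± 0.167, adjusted p = 0.00671), with all 3 arrays under all P0 arrays. CXCL14 on A was at least 13.8-fold higher than in P0 (adjusted p = 7.39e-07), while AMCF-II on B (-0.33, adjusted p = 0.0935) was not called. CXCL14 on B (0.71, adjusted p = 0.0606) was not called either, but it passed in 6 alternative settings, among them without 24 h replicate 3 (0.0219), without P0 replicate 3 (0.0409) and with a replicate block over 12 arrays (0.0363). CCL4 was 306-fold lower than in P0 cells, CCL3L1 106-fold, and CXCL12 46.6-fold on A and 19.3-fold on B.

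Within P2 the replicates differed in a repeated way. On both CXCL14 probe sets replicate 2 was highest and replicate 3 lowest in each of the 3 P2 groups, with 9.20 in replicate 2 and 8.00 in replicate 3 of untreated cells on A. CXCL16 went the other way, with replicate 3 highest in each P2 group, by 0.20 to 0.44 log2 units over the nearest array. In the untreated arrays the endothelial cadherin CDH5 read 9.96, 10.79 and 6.72 in replicate order and the adhesion molecule PECAM1 read 10.54, 10.93 and 8.67. ERG, another endothelial marker, was not lowest in replicate 3 at 24 h, with 10.00, 9.58 and 10.13. Its rise at 8 h was 1.10 with all arrays and 0.75 without untreated replicate 3, so that untreated array was low for ERG too. The mean log2 level over 13 measured endothelial markers ran from 5.67 to 7.56 in untreated P2, from 5.74 to 7.36 at 8 h, from 5.53 to 7.07 at 24 h and from 7.23 to 7.43 in P0 arrays, with VWF under the control level in untreated P2 and P0 cells. The mean over macrophage markers had the replicate order of CXCL14 too, though only 4 of the 14 markers were lowest in replicate 3 of every P2 group. The mean log2 level over the 14 markers read 6.88, 7.38 and 6.79 in untreated arrays in replicate order. It read 6.83, 7.19 and 6.56 at 8 h and 6.56, 6.98 and 6.48 at 24 h. The parts of endothelial cells and of macrophages in the CXCL14 and CXCL16 levels were not tested. Without the P2 arrays numbered 3, a fit added after the data were seen, 9 chemokine probe sets were still called in culture and 3 at 24 h.

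**Figure D3:**
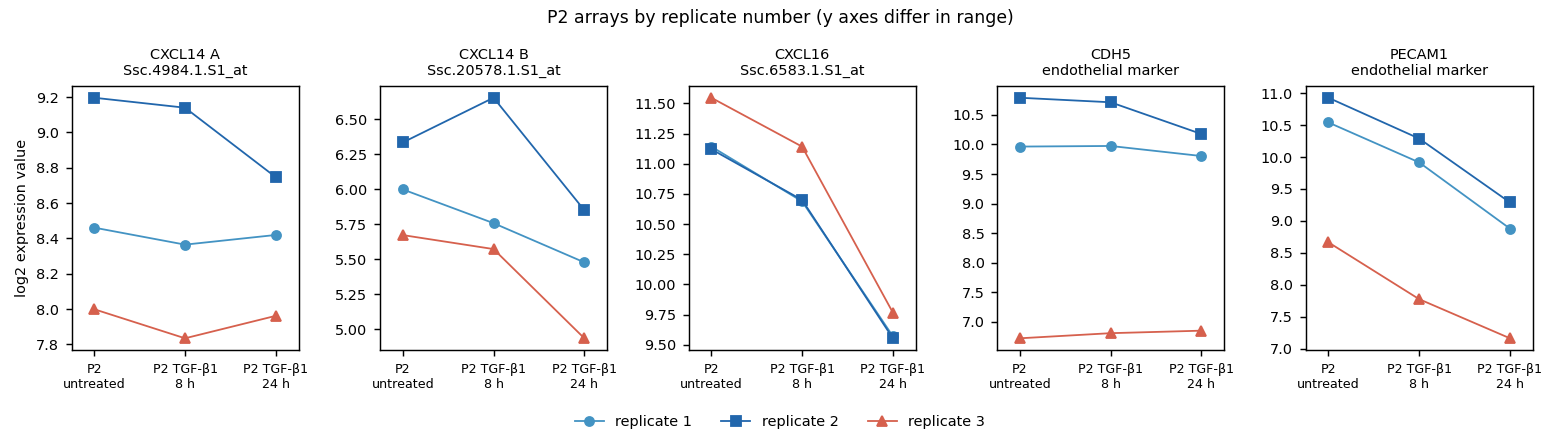
Log2 expression values (y axis, with a different range in each panel) of the CXCL14 and CXCL16 probe sets and of the endothelial markers CDH5 and PECAM1 in the 9 P2 arrays, where lines join arrays of the same replicate number across untreated cells, 8 h and 24 h of TGF-β1. Replicate 3 is lowest for CXCL14, CDH5 and PECAM1 and highest for CXCL16 in each P2 group.

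Most other chemokines fell with CCL4, CCL3L1 and CXCL12. Of 10 other chemokine genes tested, 8 fell and 1 rose in untreated P2 against P0 cells (median log2 fold change -2.91), where 24.2% of all 6014 tested genes fell and 42.1% rose (median 0.20). Of these genes CCL24, CXCL9 and CCL19 passed the filter on low values only through their P0 arrays, and PPBP only through P2 arrays. The filter thus favoured the direction they took, and the count is no independent result for them. The largest falls were in the monocyte chemoattractant CCL8 (-5.66 ± 0.283), the eosinophil chemoattractant CCL24 (at least 20.3-fold, to a mean under the control level), CCL14 (-5.21 ± 0.201) and the neutrophil chemoattractant CXCL2 (-5.07 ± 0.351). The 1 that rose, named after its value was seen, was PPBP, the platelet chemokine precursor (at least 2.86-fold). CXCL8 is a neutrophil chemokine whose gene adjoins AMCF-II on Sscrofa11.1, and it is named here for that reason after its value was seen. It fell by 2.90 (SE 0.441, adjusted p = 0.000116), opposite to AMCF-II on probe sets A and C, while AMCF-II on B was not called. After 24 h of TGF-β1 2 of the 10, CCL8 and CCL19, were called lower than in untreated cells, where 5.67% of all tested genes fell and 4.42% rose. CCL8 had a log2 fold change of -1.26 and was not called without untreated replicate 2 (adjusted p = 0.0572), 24 h replicate 3 (0.0565) or the P2 arrays numbered 3 (0.0713). Both means of CCL19 lay under the control level, and its call was lost in 7 of 14 alternative settings. Those were the fits without untreated replicate 1 or 3 or any 1 of the 24 h arrays (adjusted p = 0.0712 to 0.119), without the P2 arrays numbered 3 (0.205), and with values raised to the control level. At 8 h limma called 0 of the 10, with 1 at an unadjusted p under 0.05. The counts for this and the other gene lists come from the fit without the replicate block, so few calls do not show that few genes moved. In replicate order CXCL2 read 9.18, 9.68 and 8.78 in untreated arrays and 8.09, 8.67 and 7.59 at 8 h, lower in each. CXCL8 read 10.45, 11.51 and 9.77 and then 10.86, 11.92 and 10.99, higher in each. Both were picked after their values were seen.

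Of 9 receptor genes on the array 6 passed the filter and were tested. Of these 6 receptor genes 2 fell in culture and 0 rose, where 24.2% of all tested genes fell and 42.1% rose. CXCR4, the receptor of CXCL12, read 8.75, 9.10 and 6.26 in untreated P2 arrays and 10.46, 10.54 and 10.24 in P0 arrays. Its log2 fold change of -2.38 (SE 0.832, adjusted p = 0.0271) was -1.49 without untreated replicate 3 (adjusted p = 0.117), and the call was also lost without P0 replicate 1, 2 or 3 (adjusted p = 0.0517 to 0.0683). CCR1, a receptor of CCL3 type chemokines in humans, fell by 1.31 (SE 0.470, adjusted p = 0.0305). CCR1 no longer passed when untreated replicate 3 (-0.91, adjusted p = 0.127), untreated replicate 1 (0.0919), P0 replicate 1 (0.0613), P0 replicate 2 (0.104) or all P2 arrays numbered 3 (0.0885) were omitted. Under TGF-β1 limma called 0 of the 6 at 8 h and 0 at 24 h, with 1 at an unadjusted p under 0.05 each time.

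Among 13 genes that cut or present chemokines, 4 rose and 3 fell in culture, against 42.1% and 24.2% of all tested genes. The collagenase MMP1, which passed the filter only through P2 arrays, rose at least 16.0-fold. The heparan sulphate carrier SDC2 rose by 1.98 on the log2 scale. The gelatinase MMP2, which can cut CXCL12, fell by 1.58 and the hyaluronan-binding TNFAIP6 fell by 1.17. TGF-β1 raised EXT1, an enzyme of heparan sulphate synthesis, by 1.29 at 8 h (adjusted p = 0.00530) and 0.99 at 24 h (adjusted p = 0.0107, and 0.0867 in a fit of the 2 groups alone). ADAM17, a membrane sheddase, fell by 0.49 at 8 h (adjusted p = 0.0257), a call lost in 7 of 15 alternative settings, among them each without 1 array except untreated replicate 3 (adjusted p = 0.0626 to 0.0938).

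Genes listed for the NF-kB pathway and its feedback fell alongside CCL4, CCL3L1 and CXCL12. No subunit of NF-kB was among those that passed the filter, and the activity of NF-kB was not tested. Of 24 listed genes 10 were tested. Of the 10, 9 fell and 1 rose in untreated P2 against P0 cells, where 24.2% of all tested genes fell and 42.1% rose. Their median log2 fold change was -2.42, against 0.20 over all tested genes. TNF fell at least 64.8-fold, IL1B by 5.24, IL1A by 4.76 and NFKBIA, the inhibitor that NF-kB itself induces, by 3.91. The 1 that rose was IKBKG (0.94), a subunit of the kinase complex, named after its value was seen. Under TGF-β1 1 of the 10 fell at 8 h, where 2.84% of all tested genes fell and 2.74% rose. It was NFKBIA, by 0.90 (adjusted p = 0.0131, and 0.0531 without untreated replicate 3). At 24 h 3 fell and 1 rose, where 5.67% of all tested genes fell and 4.42% rose. SOD2, a mitochondrial superoxide dismutase, was down by 1.61 (adjusted p = 0.000848) and the adhesion molecule ICAM1 up by 1.13 (adjusted p = 0.0105).

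Macrophage markers moved with CCL4 and CCL3L1 between P2 and P0. Their mean log2 level ran from 6.56 to 7.19 at 8 h and from 6.48 to 6.98 at 24 h. CD163 (-5.55 ± 0.478), SLA-DRA (-4.28 ± 0.428), CD74 (-4.18 ± 0.190) and C1QC (-3.98 ± 0.235) had the largest falls, and 0 of the 14 had a mean under the control level in either group. Of 13 lymphocyte and NK cell markers on the array 5 passed the filter and were tested. Of these 5 limma called 0 (1 at an unadjusted p under 0.05), with 5 means under the control level in untreated P2 and 3 in P0 cells. Of 13 endothelial markers 2 fell, SELE (at least 13.5-fold) and NOS3 (-1.44 ± 0.462), where 24.2% of all tested genes fell and 42.1% rose. NOS3 was not called without untreated replicate 3 (adjusted p = 0.0780) or P0 replicate 3 (0.0646). Of 10 fibroblast markers 5 fell and 1, S100A4, rose by 5.10, against the same 24.2% and 42.1% of all tested genes. KIT was the 1 that passed the filter among 4 markers of neutrophils and mast cells on the array. It rose by 2.15 (adjusted p = 0.0164), a call lost without untreated replicate 1 or 2 or P0 replicate 3 (adjusted p = 0.0585 to 0.0656). Under TGF-β1 few markers were called in the fit without the replicate block, where 2.84% of all tested genes fell and 2.74% rose at 8 h, and 5.67% fell and 4.42% rose at 24 h. CD14, the lipopolysaccharide co-receptor of monocytes, was the 1 of 14 macrophage markers called at 24 h (-0.73 ± 0.154, adjusted p = 0.0128, and 0.0561 without untreated replicate 1). ERG, an endothelial transcription factor, was the 1 of 13 endothelial markers called at 24 h (1.49 ± 0.258, adjusted p = 0.00487, and 0.0527 in a fit of the 2 groups alone). Both were also called at 8 h, in CD14 by -0.59 (adjusted p = 0.0485) and in ERG by 1.10 (adjusted p = 0.0303), calls that 10 and 6 of 15 alternative settings lost. Of 10 fibroblast markers limma called 1 higher and 1 lower at 24 h, with 6 at an unadjusted p under 0.05. The higher was FAP, a surface protease of activated fibroblasts, which rose by 1.15 (adjusted p = 0.0862 without the P2 arrays numbered 3). COL3A1, a fibrillar collagen, fell by 1.14 at 24 h on a probe set near the control level of 4.58. It read 5.79, 5.60 and 6.41 in untreated arrays and 4.31, 4.74 and 5.31 at 24 h. It was not called without untreated replicate 1 or 3 or 24 h replicate 1 or 2 (adjusted p = 0.0678 to 0.133). A fit of the 2 groups alone lost it too (adjusted p = 0.0961). The part of each cell type in the chemokine changes was not tested.

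**Figure D4:**
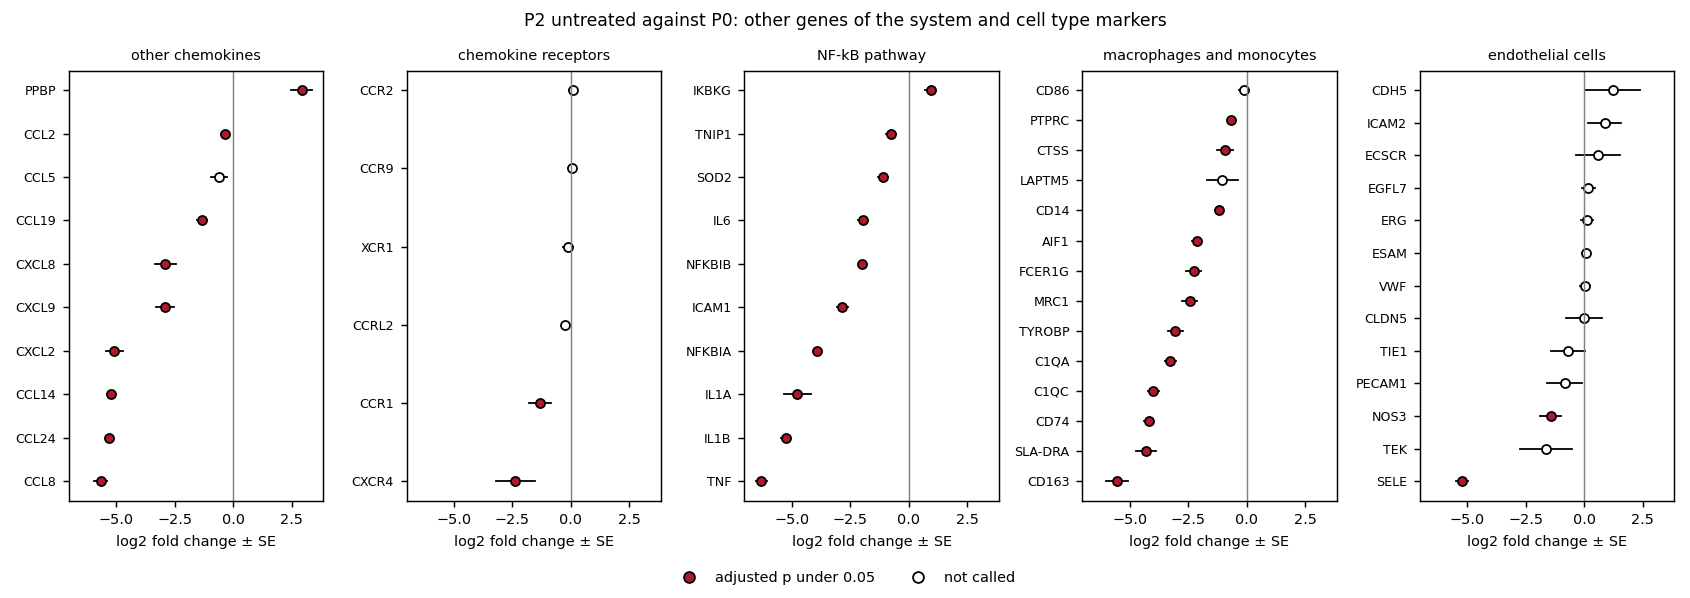
Log2 fold changes (x axis) with standard errors in untreated P2 against P0 cells for the measured genes (y axis) of other chemokines, chemokine receptors, the NF-kB pathway, macrophage and monocyte markers and endothelial markers, with filled points for an adjusted p under 0.05. In these lists 8 of 10 other chemokines, 9 of 10 NF-kB genes and 12 of 14 macrophage markers fell, against 2 of 13 endothelial markers. Over all tested genes 24.2% fell.

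The genes with the most similar profiles were sought for the brightest probe set of each chemokine among 6008 other genes, by the root mean square difference between log2 profiles centred on their own mean over the 12 arrays. For CCL4 the nearest were FMO1 (0.263), C4BPA (0.334) and FOS (0.507). For CCL3L1 they were CLEC3B (0.201), TNF (0.276) and RGS1 (0.302), and for CXCL12 IL10 (0.283), CCL14 (0.289) and IL1B (0.356). CXCL14 lay nearest LOC574051 (0.388), PCK2 (0.415) and the lactate transporter SLC16A3 (0.421). CXCL16 lay nearest the immunoproteasome subunit PSMB10 (0.290), PKIG (0.300) and SLC1A3 (0.311). AMCF-II on probe set A had no gene as close, with the mitotic genes CDC20 (0.615), CDCA3 (0.621) and RACGAP1 (0.622) nearest. Probe set B of AMCF-II differed from A by 1.76, and its nearest genes were not sought. Among the chemokines, CXCL12 on A and CCL3L1 differed by 0.513, less than the 2 CXCL12 probe sets did from each other (0.653). These likenesses carry no test, and those of CCL4, CCL3L1 and CXCL12 rest mostly on the step between P2 and P0.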

How the data were processed

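The authors' deposited log2 expression values per probe set (1 column for each of 12 arrays) were used as they stand, and per the submitters' processing notes they were made with GCRMA. The sources used here do not give a version, scan dates or batches. Of 23999 probe sets, 64 reporter controls were left out, and a probe set was tested if over log2 4 in at least 3 arrays (17638). A probe set could pass through P0 or P2 arrays alone, which favours a change in that direction. CXCL14 on probe set A passed only through P2 arrays. The means of the groups were estimated together from the 12 arrays by limma 3.58.1 (R 4.3.3, 8 residual and 3.75 prior degrees of freedom). Tests were two-sided, adjusted by Benjamini-Hochberg over all tested probe sets in each comparison, and called under 0.05. Errors are limma standard errors with 3 arrays a group. Alternatives were no filter, a filter at log2 6, quantile normalization, values raised to the control level, a fit of the compared groups alone, a trended prior, replicate blocks, and each array of the groups compared left out in turn. Leaving out the P2 arrays numbered 3, and 24 h against P0, were added after the data were seen. Folds are bounds where a group mean lay under the 95th percentile of controls. A gene on a list was read by its single-symbol probe set with the highest mean. List genes with no probe set that passed the filter were not tested and are not among those called measured.

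The chemokines and lists were chosen with earlier results of these data known. From each list, up to 4 called genes with the largest change in culture and up to 2 in each TGF-β1 comparison were eligible to be named. After removal of group means, same-number P2 arrays correlated at 0.348 to 0.679 over 9 pairs, so replicate number was taken to pair P2 arrays. With P0 arrays it did not (-0.0916 to 0.0158). The source of the pairing is not stated in the labels. No 2 arrays were identical. Promoter and protein sequences were not analysed here. The pipeline was tested on simulated arrays. The number of arrays limits the precision, with a median standard error of 0.159.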

Additional observations from a re-analysis of the deposited data

Results flagged for a closer look

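CXCL16 drew attention because its response to TGF-β1 differed between 8 h and 24 h when the difference itself was tested. Its effect at 24 h minus that at 8 h was -1.21 on the log2 scale (limma adjusted p = 0.0152), and each of the 3 arrays at 24 h lay under each array at 8 h. With the replicate number as a block in the P2 arrays the adjusted p was 0.00216. The call was lost in a fit of the 2 groups alone (adjusted p = 0.174). It was also lost without 8 h replicate 1 (0.0628), 8 h replicate 3 (0.0623) or 24 h replicate 1 (0.0734).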

How the results depend on the processing

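In untreated P2 against P0 cells each of the 139 alternative values of the chemokine probe sets kept its direction and its side of the threshold, and 9 were called in each of the 6 fits that left out 1 array. For 24 h against P0 the count was 8 to 9 in such fits (all probe sets 10254 to 10630, and 9577 to 9919 for P2 against P0). The 8 h comparison was the least stable. Leaving out 1 array gave 0 to 2 chemokine probe sets and 364 to 702 of all, with 3 to 4 of the 10 at an unadjusted p under 0.05 where limma called 0. The fit of only the 2 groups gave 0 (5 unadjusted) and 519, the replicate block in 9 P2 arrays gave 5 and 2200, and leaving out the P2 arrays numbered 3 gave 0 (5 unadjusted) and 265. Without 1 array at 24 h against untreated, 3 chemokine probe sets and 800 to 1347 of all were called. A filter at log2 6, control-level flooring and a block over 12 arrays each gave 5, and the block in 9 P2 arrays gave 7 and 3519. The fit of 2 groups called 631 of all and leaving out the P2 arrays numbered 3 called 762.

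For 24 h against 8 h, leaving out 1 array gave 0 to 1 chemokine probe sets and 4 to 44 of all. The fit of 2 groups gave 0 and 0 (5 and 1532 unadjusted), no filter gave 25 of all and a trended prior 63. The block gave 2 and 109 over 12 arrays and 3 and 430 over 9, and 12 of all were called without the P2 arrays numbered 3. In the comparisons within P2 the block changed no chemokine call beside those given above. The cause of these shifts was not tested. No called chemokine value changed sign in any setting run.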
